A study of Mus musculus with 14 samples.

Results

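The genes described here are *Kcnma1*, *Slc1a3*, *Rftn1*, *Plpp3*, *Atp13a2*, *Limch1*, *Phka1* and *Plcb4*, 8 of the 56414 genes listed for mouse mammary tumors treated with nicotinamide (NAM). They were chosen by their measured values, as genes seen higher in NAM-treated than in untreated tumors in both tumor models of the study. The differences with NAM given below for these genes are therefore a description and not a test. Bulk RNA-seq was performed with 1 library per tumor on 8 M/D-driven tumors (4 untreated, 4 given NAM) and on 6 AT3 tumors (3 untreated, 3 given NAM). M/D tumors arose in female C57BL/6 mice that were aged 6 to 9 weeks when they received a slow-release pellet of 50 mg medroxyprogesterone acetate (MPA, M) and then repeated oral gavages of 200 µL of the polycyclic aromatic carcinogen DMBA (D) at 5 mg/mL, a challenge shared by untreated and treated mice. AT3 tumors grew from 1000000 cells of the AT3 line, established from a mammary carcinoma of a transgenic mouse, injected under the skin of female C57BL/6 mice. In both models, tumors of 0.25 cm2 were assigned to plain drinking water or to 0.5% NAM in the drinking water for 10 days. By the labels, all AT3 tumors belong to experiment 3. Experiment 2 holds NAM-treated M/D tumor 1 alone, and experiment 1 holds all further M/D tumors.

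The 8 genes act in membrane transport, lipid signalling, the lysosome, the cytoskeleton and glycogen breakdown. *Kcnma1* encodes the pore of the large-conductance (BK) potassium channel, which opens with calcium and voltage, and *Slc1a3* encodes a glutamate and aspartate transporter best known from glia. *Rftn1* encodes a lipid raft protein, *Plpp3* an enzyme that dephosphorylates lipid mediators such as lysophosphatidic acid, and *Plcb4* a phospholipase C activated by Gq-coupled receptors. *Atp13a2* encodes an ATPase of lysosomes that exports polyamines, *Limch1* a protein that binds and activates non-muscle myosin II, and *Phka1* a regulatory subunit of phosphorylase kinase found in muscle.

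The bases that precede the annotated start of 4 of the genes are shown since the genes were selected for moving in the same direction. These genes are *Kcnma1* and *Slc1a3*, with the largest differences in AT3 tumors, *Limch1*, whose groups did not overlap in either model, and *Plcb4*, which alone had its higher level in AT3 tumors. Each stretch holds 250 bases before the start, read from 5′ to 3′ on the gene's strand, from RefSeq on GRCm38.p6. It lies at chr14:24004206-24004455 (minus strand) for *Kcnma1*, at chr15:8710808-8711057 (minus strand) for *Slc1a3*, at chr5:66745639-66745888 (plus strand) for *Limch1* and at chr2:135659297-135659546 (plus strand) for *Plcb4*. The *Kcnma1* stretch lies inside the measured row, which reaches to 24127601. For *Plcb4*, the stretch lies before the measured row, which begins at 135741817, and within a second row of 1 to 72 reads. The other *Plcb4* window, from 135764588 and inside the measured row, held no GC box. Capitals mark matches, searched on both strands, to the GC box, spelled GGGCGG, or to the CCAAT box, spelled as its name. They also mark the TATA box, spelled TATAAA, and the GAS element, a site of STAT factors spelled TTCNNNGAA.
Kcnma1: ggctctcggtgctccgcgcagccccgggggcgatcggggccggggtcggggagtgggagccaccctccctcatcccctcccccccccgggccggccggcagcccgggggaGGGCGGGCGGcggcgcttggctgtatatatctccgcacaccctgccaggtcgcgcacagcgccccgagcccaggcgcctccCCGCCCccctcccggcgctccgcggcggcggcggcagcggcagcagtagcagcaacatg
Slc1a3: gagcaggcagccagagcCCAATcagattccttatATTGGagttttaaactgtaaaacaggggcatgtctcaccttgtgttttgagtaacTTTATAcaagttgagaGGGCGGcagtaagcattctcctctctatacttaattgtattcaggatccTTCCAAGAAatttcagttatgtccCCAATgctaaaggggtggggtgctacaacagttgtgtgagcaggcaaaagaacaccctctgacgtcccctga
Limch1: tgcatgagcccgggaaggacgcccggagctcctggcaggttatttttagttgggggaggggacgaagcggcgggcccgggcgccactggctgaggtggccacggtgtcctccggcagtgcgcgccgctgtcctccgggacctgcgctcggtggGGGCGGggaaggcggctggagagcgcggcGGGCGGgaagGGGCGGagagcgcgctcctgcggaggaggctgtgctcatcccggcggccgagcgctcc
Plcb4: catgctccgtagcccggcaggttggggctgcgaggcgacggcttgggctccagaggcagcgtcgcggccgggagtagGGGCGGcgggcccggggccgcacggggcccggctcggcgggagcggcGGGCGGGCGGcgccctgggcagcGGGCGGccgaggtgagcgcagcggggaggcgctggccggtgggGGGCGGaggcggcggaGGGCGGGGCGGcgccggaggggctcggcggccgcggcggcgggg

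RefSeq gave 11 windows of 300 bases for the 8 genes, from 250 bases before to 50 bases after a start. A GC box was found in at least 1 window of all 8 genes and in 8 of the 11 windows, against 35.7% of the 32851 windows of all genes, and in at least 1 window of 38.2% of genes. The printed stretch of *Plcb4* held 7 GC boxes, some of which overlap each other, those of *Kcnma1* and *Limch1* held 3 each, and that of *Slc1a3* held 1. The window of *Slc1a3* also held 3 CCAAT boxes, a TATA box on the antisense strand (37.4% and 13.6% of all windows hold these motifs) and, starting 96 bases before the start, the only GAS element of the 11 windows, against 8.3% of all windows. An E-box (CACGTG), a CRE (TGACGTCA), an AP-1 site (TGANTCA) and a CArG box were matched in 0 of the 11 windows, against 7.15%, 1.79%, 7.81% and 1.63% of all windows. GC content was high for most of the genes but not for all. Of all windows, 99.8% had a lower GC content than the first window of *Plcb4*, and 98.1% than that of *Kcnma1*. These shares were 93.9% for the first window of *Limch1*, 90.4% for *Rftn1*, 85% for *Atp13a2* and 76.9% for *Phka1*. They were 25.1% for *Plpp3*, 23.1% for *Slc1a3* and 9.48% to 39.3% for the further windows of *Limch1* and *Plcb4*. GC boxes consist of G and C, and their count was not told apart from GC content. A match is a description of letters, and no binding was measured in these tumors.

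The deposited values are normalized counts, that is, reads on the constitutive regions of a gene divided by a size factor of the tumor. Whole reads could be recovered from 100% of the values (within 0.01 of a whole number) and summed to between 40936868 and 84178009 per tumor. As the values were scaled within each model, groups were compared within a model, and levels of different genes were not compared since the values are not per length. Tumors are mixtures of cells, so that more cells of a type and more RNA per cell cannot be told apart for any of the values below. All 8 luminal and all 6 basal markers of mammary epithelium were above 0 in at least 1 tumor of each model. In NAM-treated M/D tumor 1, however, the summed luminal markers were 7525, against 84342 to 331090 in the 7 other M/D tumors. Its summed basal markers were 5815, against 230633 to 1104417 in the 7 others. Summed B cell markers of this tumor were 338832, against 113.4 to 1735 in the others. The sum included *Vpreb1* at 67823 and *Igll1* at 80368, whereas *Ms4a1* was at 269.9. *Esr1*, the estrogen receptor gene, was at 129.8 to 799.0 in M/D tumors and at 0 to 54.5 in AT3 tumors. For this tumor, the counts of the 8 genes, of their partner genes and of calls between models are also given without it.

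With NAM, all 8 genes were past both thresholds in both models, a result that their selection as genes higher with NAM had shaped in advance. The thresholds are a p not above 0.05 and a change of 1.5-fold or more, here from limma fits to log2(normalized count + 1). The p was used unadjusted, since the methods section names limits on p and fold change without saying whether p was adjusted. Of all genes tested, 3.03% were past them on the higher side in M/D tumors and 12.2% in AT3 tumors. The log2 fold change of the 8 genes, or log2 difference between NAM-treated and untreated tumors, ranged from 0.70 to 2.52 (median 1.13) in M/D tumors and from 0.63 to 2.99 (median 0.82) in AT3 tumors, whereas the median of all genes was 0.01 and −0.05. After adjustment over all genes, limma left 0 of the 8 genes at an adjusted p of at most 0.05 in either model. The edgeR test also left 0 in either (7 and 6 genes had an unadjusted p not above 0.05). The DESeq2 Wald test left *Limch1* in M/D tumors and *Plcb4* in AT3 tumors. Over all genes, limma called 1 gene in each model at this adjusted p and edgeR called 0. The DESeq2 test called 167 in M/D and 2047 in AT3 tumors.

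**Figure D1:**
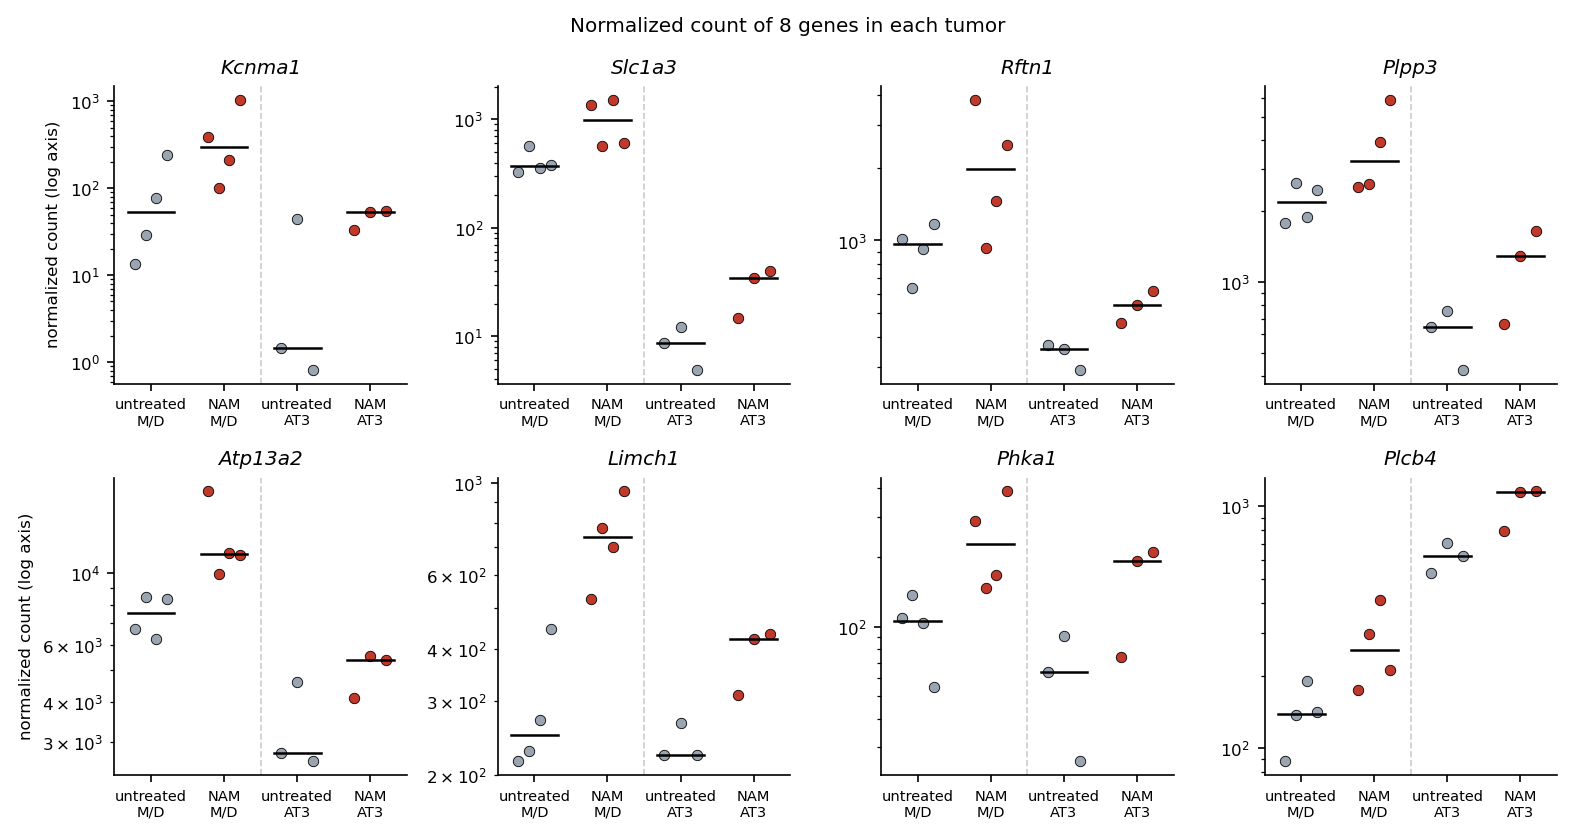
Normalized count (log axis, a separate scale for each gene) of the 8 genes in each of the 14 tumors, grouped by model and treatment, with a line at the group median. The M/D values of *Atp13a2*, *Limch1* and *Phka1* and the AT3 values of *Slc1a3*, *Rftn1*, *Limch1* and *Plcb4* do not overlap between untreated and NAM-treated tumors.

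*Kcnma1* (GSMG0012118, chr14:23298694-24127601 on mm10) had the largest and the least even differences. Its normalized counts were 13.5, 29.3, 76.6 and 242.2 in untreated and 391.3, 101.1, 209.9 and 1051 in NAM-treated M/D tumors 1 to 4. The groups overlapped, as NAM-treated tumors 2 and 3 were below untreated tumor 4, and the log2 fold change was 2.52 (standard error 0.99). In AT3 tumors, the counts were 1.45, 44.7 and 0.814 without NAM and 32.8, 53.6 and 54.5 with NAM. Untreated AT3 tumors 1 and 3 held 1 read each, whereas untreated tumor 2 held 44 reads and was above NAM-treated tumor 1. The fitted log2 fold change of 2.99 (standard error 1.12) thus depends on the pseudocount, with 3.25 at 0.5 and 2.05 at 5, and the log2 ratio of the group means was 1.59. Reads of *Kcnma1* can also not be told apart from those of 4930519K11Rik, a noncoding gene on the opposite strand that shares 1016 exonic bases with it, as the strand of the libraries is not given in the sources used here.

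*Slc1a3* (GSMG0013758, chr15:8634124-8710807) was measured at 324.1, 573.7, 359.0 and 378.2 in untreated and at 1363, 568.7, 1526 and 606.5 in NAM-treated M/D tumors. NAM-treated tumors 1 and 3 were far above all others, while NAM-treated tumor 2 was below untreated tumor 2, for a log2 difference of 1.21 (standard error 0.39). In AT3 tumors, *Slc1a3* was low, at 8.70, 12.2 and 4.88 without NAM and 14.6, 34.8 and 39.7 with NAM, corresponding to 6, 12 and 6 against 12, 37 and 48 reads. All NAM-treated AT3 tumors were above all untreated ones, with a log2 difference of 1.64 (standard error 0.63).

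*Rftn1* (GSMG0017640, chr17:49992257-50190497) reached 1016, 638.9, 923.7 and 1170 in untreated and 3828, 928.0, 1451 and 2491 in NAM-treated M/D tumors. NAM-treated tumor 1 was the highest, and NAM-treated tumor 2 lay among the untreated tumors, with a log2 difference of 1.05 (standard error 0.44). In AT3 tumors, values were 371.0, 356.4 and 291.4 without and 456.8, 542.8 and 616.3 with NAM, with no overlap and a log2 difference of 0.66 (standard error 0.24).

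*Plpp3* (GSMG0026845, chr4:105157261-105232767) showed the smallest log2 fold change in M/D tumors, at 0.70 (standard error 0.31). Its counts were 1783, 2630, 1877 and 2459 in untreated and 2525, 2601, 3921 and 5908 in NAM-treated tumors, so that NAM-treated tumors 1 and 2 lay below untreated tumor 2. In AT3 tumors, they were 642.0, 755.4 and 424.1 without and 663.4, 1291 and 1641 with NAM, a log2 difference of 0.92 (standard error 0.37), and NAM-treated tumor 1 lay below untreated tumor 2.

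*Plcb4* (GSMG0043847, chr2:135741817-136014574) was at 88.3, 136.9, 190.7 and 141.6 in untreated and at 174.9, 297.1, 409.6 and 211.0 in NAM-treated M/D tumors. Only NAM-treated tumor 1 lay below the highest untreated tumor, and the log2 fold change was 0.94 (standard error 0.38). Counts in AT3 tumors were 533.3, 707.7 and 622.7 without and 789.8, 1148 and 1158 with NAM, with no overlap and a log2 difference of 0.72 (standard error 0.25). A second row with this symbol (GSMG0043846, chr2:135659009-135742838), which covers the printed promoter, held 2.90, 19.3 and 5.70 in untreated and 10.9, 50.8 and 59.5 in NAM-treated AT3 tumors. The order of the tumors was not the same in the second row, since untreated tumor 2 was above NAM-treated tumor 1.

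*Atp13a2* (GSMG0027306, chr4:140986868-141007701) held 6706, 8421, 6258 and 8323 in untreated and 17962, 9918, 11525 and 11377 in NAM-treated M/D tumors. The groups did not overlap, NAM-treated tumor 1 stood highest, and the log2 fold change was 0.75 (standard error 0.22). In AT3 tumors, counts of 2772, 4609 and 2614 without and 4108, 5537 and 5396 with NAM overlapped, as untreated tumor 2 was above NAM-treated tumor 1. The log2 fold change of 0.63 (standard error 0.27) was the smallest of the 8 genes in this model.

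*Limch1* (GSMG0029241, chr5:66745840-67057159) was the only one of the 8 genes whose groups did not overlap in either model. Its counts were 215.0, 228.2, 269.6 and 445.8 in untreated and 525.4, 780.6, 702.3 and 954.6 in NAM-treated M/D tumors, a log2 difference of 1.38 (standard error 0.32). In AT3 tumors, they were 223.2, 266.0 and 223.0 without and 309.8, 423.3 and 433.7 with NAM, a log2 difference of 0.70 (standard error 0.25).

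*Phka1* (GSMG0042743, chrX:102513975-102644246) was found at 109.1, 138.0, 103.6 and 54.7 in untreated and at 288.6, 147.4, 168.4 and 388.3 in NAM-treated M/D tumors. These groups did not overlap, although NAM-treated tumor 2 was only 1.07 times the highest untreated tumor, and the log2 fold change was 1.25 (standard error 0.44). Counts of 63.8, 91.4 and 26.1 in untreated and 74.1, 193.8 and 210.7 in NAM-treated AT3 tumors overlapped, with a log2 difference of 1.42 (standard error 0.56).

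Across the 8 genes, the groups did not overlap for 3 genes in M/D tumors (against 2.43% of all genes tested) and for 4 genes in AT3 tumors (against 11.7%), shares that the selection of the genes also shaped. The highest value was in a NAM-treated tumor for all 8 genes in both models. In AT3 tumors, NAM-treated tumor 3 was highest for 7 genes and untreated tumor 3 lowest for 7 genes. In M/D tumors, NAM-treated tumor 4 was highest for 4 genes and NAM-treated tumors 1 and 3 for 2 genes each, while untreated tumor 1 was lowest for 5 genes. The highest M/D tumor hence differed between genes, whereas the highest AT3 tumor was mostly the same.

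**Figure D2:**
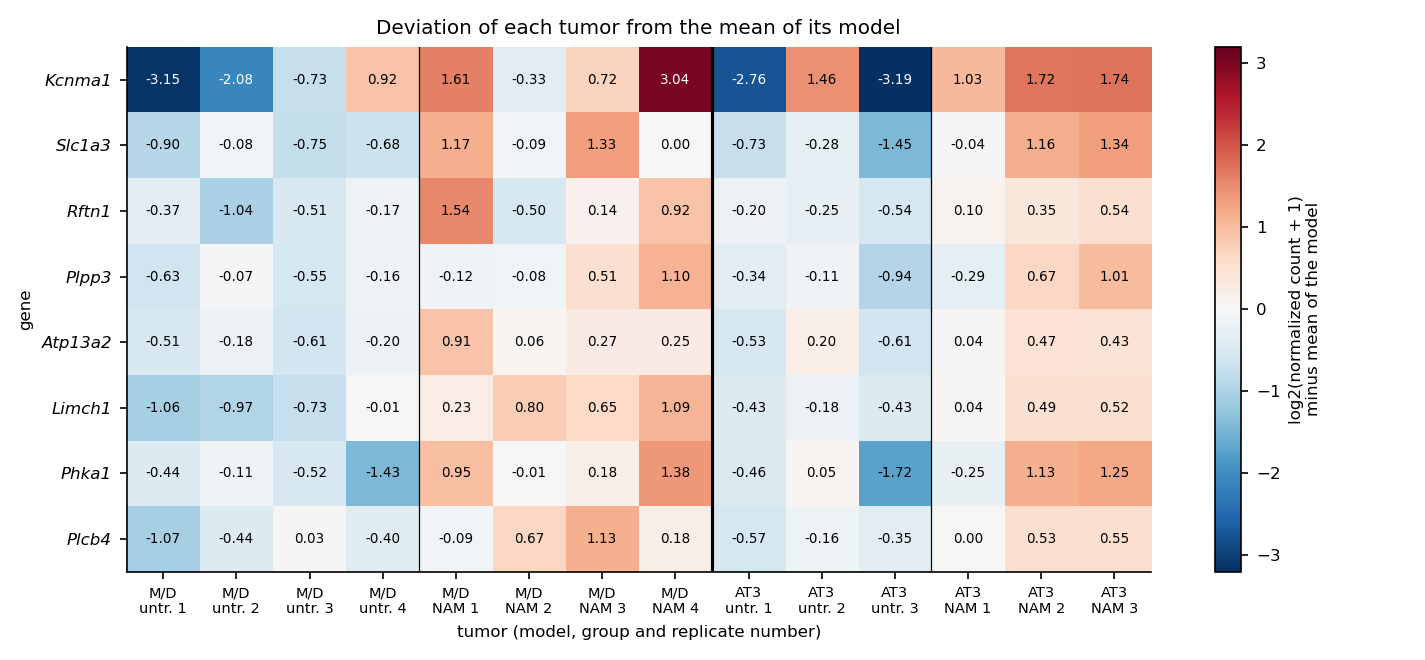
Deviation of log2(normalized count + 1) from the mean of the tumors of the same model, for each of the 8 genes (rows) in each tumor (columns, with model, group and replicate number), in red above and in blue below the mean. NAM-treated AT3 tumors 2 and 3 are above the mean for all 8 genes, whereas NAM-treated AT3 tumor 1 lies within 0.3 of it for 7 genes.

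Each tumor was then left out in turn. All 8 log2 fold changes remained above 0 in each of these 14 fits, and the lowest were 0.45 in M/D tumors (*Plpp3*, without NAM-treated tumor 4) and 0.48 in AT3 tumors (*Atp13a2*, without untreated tumor 3). In M/D tumors, 4 to 7 of the 8 genes stayed past both thresholds. Over all genes tested, the share past them on the higher side went from 1.81% (without untreated tumor 1) to 5.5% (without NAM-treated tumor 2). Leaving out untreated tumor 1 left 4 genes (*Slc1a3*, *Atp13a2*, *Limch1* and *Phka1*), and leaving out NAM-treated tumor 4 also left 4 (*Slc1a3*, *Atp13a2*, *Limch1* and *Plcb4*). Without NAM-treated tumor 1, *Slc1a3*, *Plpp3*, *Limch1*, *Phka1* and *Plcb4* stayed past them, while *Kcnma1* (log2 fold change 2.398), *Rftn1* (0.71) and *Atp13a2* (0.57) did not. *Slc1a3* and *Limch1* stayed past the thresholds in all 8 of these fits and *Atp13a2* in 7.

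AT3 tumors gave a wider range, from 0 to 8 genes. All 8 genes stayed past the thresholds without untreated tumor 2 or without NAM-treated tumor 1, but 0 stayed without NAM-treated tumor 2 or 3. Only *Plcb4* stayed without untreated tumor 3, and 3 (*Slc1a3*, *Rftn1* and *Phka1*) without untreated tumor 1. The share of all genes past them on the higher side moved as well. It was 18.25% without untreated tumor 2 and 17.9% without NAM-treated tumor 1, but 5.06% and 4.68% without NAM-treated tumors 2 and 3. Without untreated tumors 3 and 1 it was 7.34% and 6.47%. The fits with 0 genes still gave log2 fold changes of 0.55 to 2.88 without NAM-treated tumor 2 and 0.56 to 2.87 without NAM-treated tumor 3. Over both models, *Slc1a3* was past the thresholds in 11 of 14 fits, *Limch1* in 10, *Atp13a2* and *Phka1* in 9, *Kcnma1*, *Rftn1* and *Plcb4* in 6, and *Plpp3* in 5.

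**Figure D3:**
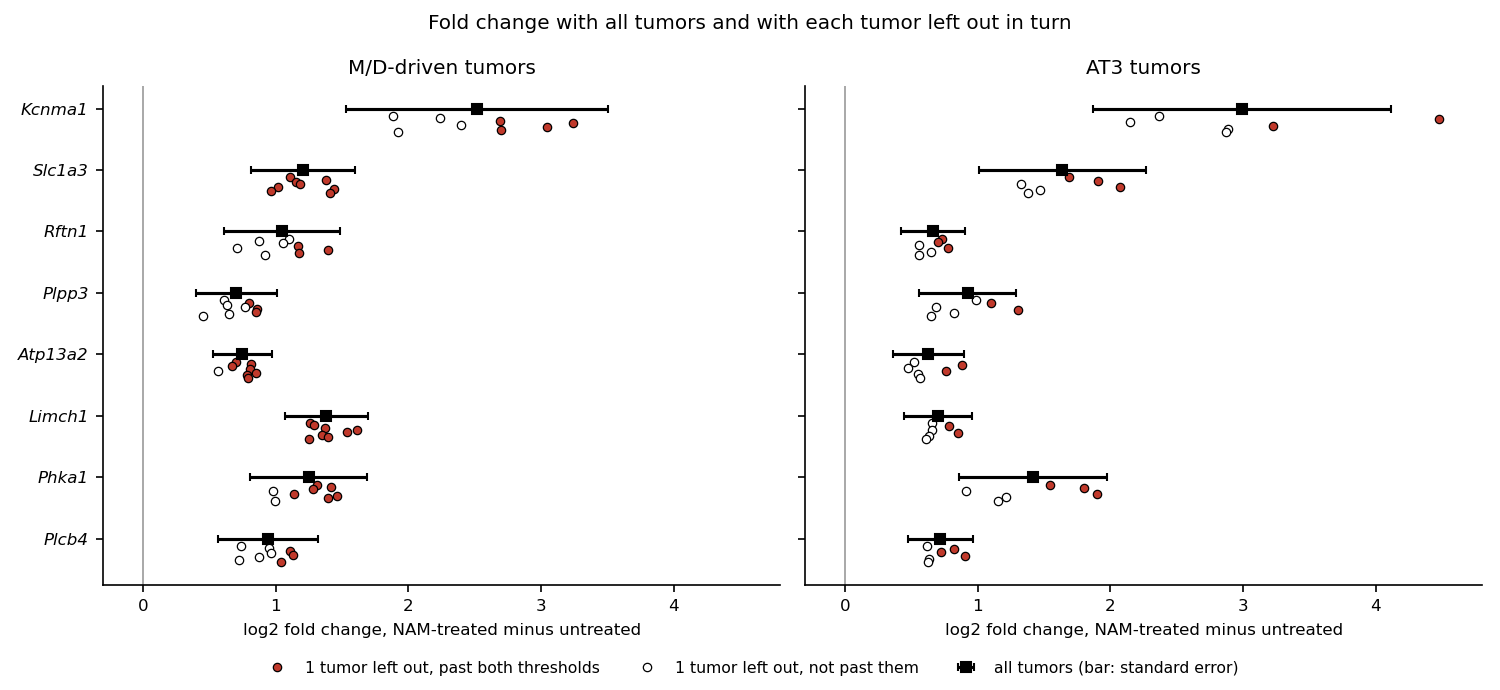
Log2 fold change of the 8 genes (NAM-treated minus untreated) in M/D and AT3 tumors, with all tumors (squares, bars give the standard error) and with 1 tumor left out (circles, filled where both thresholds were passed). All circles lie above 0, and filled circles number 2 or 3 of 6 for each gene in AT3 tumors.

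Transcript lengths differed between the 8 genes. Their longest transcripts in GENCODE M21 have 3159 (*Plpp3*) to 12094 (*Kcnma1*) bases, and 50.6% of the genes tested in AT3 tumors were shorter than *Plpp3*, whereas 66.6% or more were shorter than each of the 7 others. *Kcnma1*, *Limch1*, *Phka1* and *Plcb4* belong to the longest of 5 equal length classes, of at least 5016 bases. The deposited loci span 20.8 kb (*Atp13a2*) to 828.9 kb (*Kcnma1*), against a median of 15.6 kb over 18271 genes. In AT3 tumors, the log2 fold change of all genes with a length went with transcript length (Spearman's rho 0.59 across 16429 genes, which are not independent and share the same 6 libraries). In M/D tumors, rho was −0.04 across 18460 genes. In AT3 tumors, the median log2 fold change was −0.61 in the shortest and 0.65 in the longest class, in which 38.4% of genes were past the thresholds on the higher side, against 0.64% in the shortest. *Limch1* (0.70) and *Plcb4* (0.72) lay close to the median of their class.

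When the trend with transcript length and GC content was removed from each tumor, all 8 log2 fold changes fell in AT3 tumors, and *Slc1a3* (1.33) and *Plpp3* (0.83) stayed past the thresholds. The others were 2.23 for *Kcnma1*, 0.81 for *Phka1*, 0.35 for *Plcb4*, 0.31 for *Rftn1*, and 0.09 for both *Limch1* and *Atp13a2*. In M/D tumors, all 8 genes stayed past the thresholds (0.83 to 2.55), and all 8 log2 fold changes rose. The median of all genes with a length also rose there, from −0.02 to 0.10, so that part of this rise was shared by all genes. After removal, Spearman's rho of the fold change with length was 0.01 in AT3 tumors. In M/D tumors it was −0.07, against −0.04 before, so that the removal did not bring it nearer to 0. Of all genes tested with the trend removed, 2.43% were higher in M/D and 7.92% in AT3 tumors. The cause of the trend was not tested.

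**Figure D4:**
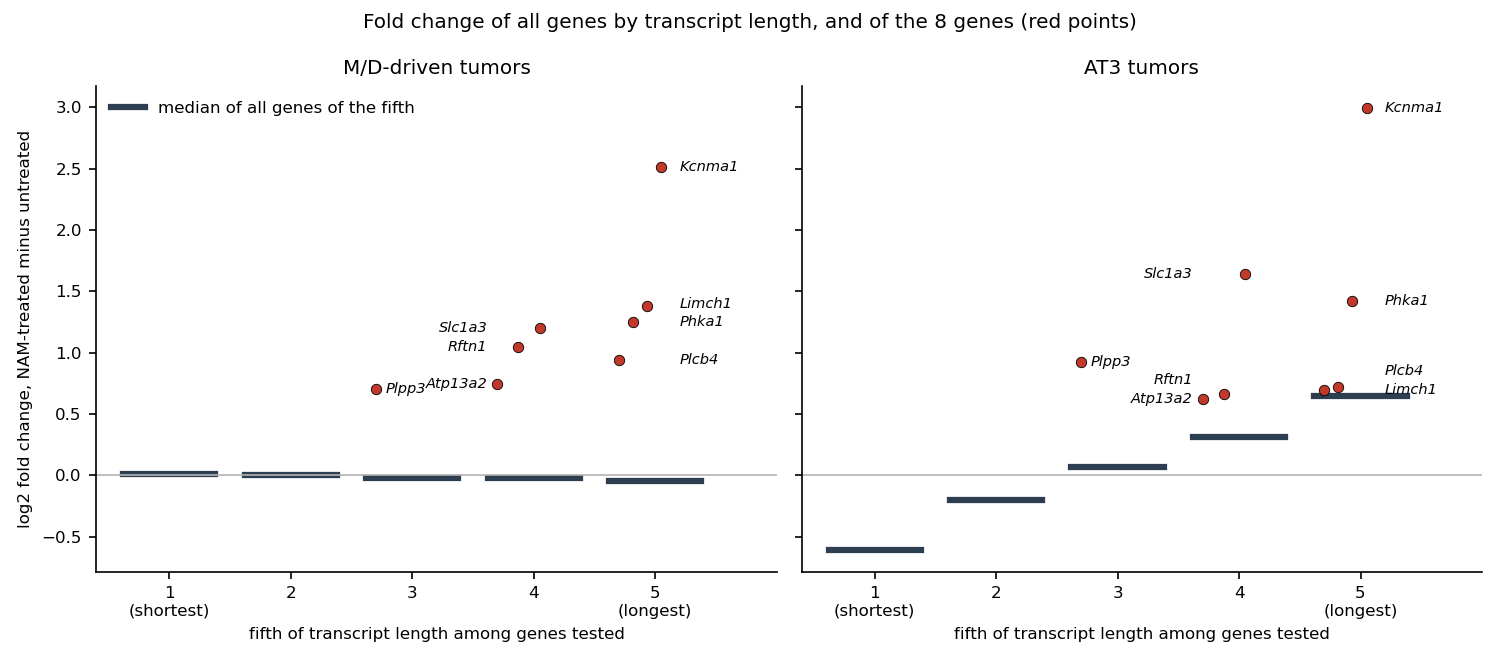
Log2 fold change with NAM by transcript length in 5 equal classes, with the median of all genes tested (bars) and the 8 genes (red points), in M/D and AT3 tumors. The medians are near 0 in M/D tumors and go from −0.61 in the shortest to 0.65 in the longest class in AT3 tumors.

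Markers of other cells also differed between these tumors. In AT3 tumors, 5 of 7 endothelial and 5 of 7 pericyte and smooth muscle markers were past the thresholds on the higher side, against 12.2% of all genes tested. Of 7 macrophage markers, 3 were higher and 0 were lower, but the median log2 fold change of the 7 was −0.23. The summed macrophage markers, at 28400 to 50029 without and 31533 to 45188 with NAM, overlapped between groups. The calls of markers were not repeated with the length and GC trend removed. Summed endothelial markers were 4773 to 6214 without and 6616 to 9717 with NAM. Summed pericyte and smooth muscle markers were 10168 to 11458 without and 14547 to 19702 with NAM. Both sums had no overlap and were highest in NAM-treated tumor 3. Among all single genes tested, 11.7% had every NAM-treated AT3 tumor above every untreated one. The endothelial marker *Emcn* was at 1004 to 1466 without and 826.1 to 1134 with NAM. For B cells, 2 of 7 markers were lower, against 10.9% of all genes, and their sums were 141.1 to 221.7 without and 55.4 to 88.7 with NAM. In M/D tumors, 0 of 7 endothelial and 0 of 7 pericyte and smooth muscle markers were past the thresholds, against 3.03% of all genes on the higher side. Their summed pericyte and smooth muscle markers were 28059 to 40619 in untreated and 23970 to 70368 in NAM-treated tumors. The highest sum was in NAM-treated tumor 4, where *Myh11* was at 32181, against 80.4 to 4567 in the other M/D tumors. Summed skeletal muscle markers were 197.4 to 26862 in untreated and 1181 to 253852 in NAM-treated M/D tumors. The highest sum was again in NAM-treated tumor 4, which was also highest for *Kcnma1*, *Plpp3*, *Limch1* and *Phka1*. NAM-treated tumor 2 had the next highest skeletal muscle sum (80469). Within the NAM-treated group, it was lowest for *Kcnma1* and *Phka1*, but not for *Plpp3* and *Limch1*. None of the 12 marker lists had a gene at 0 in all tumors of a model. The part of these cells in the differences of the 8 genes was not tested.

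Further genes met the same thresholds in both models. Of 18271 genes tested in both, 11 did so, namely the 8 genes, *Abcg1*, *Nnat* and 1 gene without a symbol (GSMG0003930). *Abcg1*, a sterol exporter of the ABC family, had log2 fold changes of 0.64 in M/D and 1.16 in AT3 tumors, and *Nnat*, an imprinted gene, had one of 1.31 in M/D tumors and mean counts of 0.677 without and 18.4 with NAM in AT3 tumors. With a tumor left out, 2 to 94 genes met the thresholds in both models. Just inside the limit was *Plpp3*, with a larger unadjusted limma p of 0.0486, and just outside was *Slc9a7*, a sodium/proton exchanger gene, with 0.0513 and log2 fold changes of 1.53 and 1.39.

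The level of the 8 genes in M/D against AT3 tumors is a comparison that did not choose them. It was made with limma after scaling the 14 tumors together, at an adjusted p of at most 0.05, and averaged over untreated and NAM-treated tumors. Of 22837 genes tested, 26.6% were higher in M/D and 22.5% higher in AT3 tumors. As the models were run in different experiments, model and experiment cannot be told apart. Of the 8 genes, 5 were higher in M/D tumors, 1 was higher in AT3 tumors and 2 did not pass, and 6 were also called without NAM-treated M/D tumor 1.

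*Slc1a3* differed most, with jointly scaled counts of 299.2 to 1402 in M/D and 6.06 to 46.0 in AT3 tumors, a log2 difference of 4.88 (standard error 0.34, limma adjusted p = 5.1e-07). All 8 M/D tumors were above all AT3 tumors. *Plcb4* went the other way, with 81.5 to 376.3 in M/D and 661.7 to 1345 in AT3 tumors, a log2 difference of −2.46 (standard error 0.24, limma adjusted p = 6.6e-06). All 8 M/D tumors were below all AT3 tumors. *Kcnma1* was higher in M/D tumors by 2.63 (standard error 0.82, limma adjusted p = 0.018), but this call was lost without untreated AT3 tumor 1 (2.31) or 3 (2.19). *Plpp3* was higher by 1.38 (standard error 0.25, limma adjusted p = 0.00062), *Rftn1* by 1.25 (standard error 0.27, limma adjusted p = 0.0024) and *Atp13a2* by 0.88 (standard error 0.18, limma adjusted p = 0.0015).

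For *Limch1*, the log2 difference was 0.19 (95% interval −0.26 to 0.64), and for *Phka1* it was 0.37 (95% interval −0.43 to 1.18). Levels of *Limch1* were 198.5 to 849.9 in M/D and 276.6 to 503.5 in AT3 tumors, and those of *Phka1* were 50.9 to 345.7 and 32.3 to 244.6, so that the models overlapped. In untreated tumors alone, 5 of the 8 genes were called, and in NAM-treated tumors alone 2 were, *Slc1a3* and *Plcb4*, in a comparison of 4 against 3 tumors in which 1678 genes in all were called, against 11215 with all tumors.

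**Figure D5:**
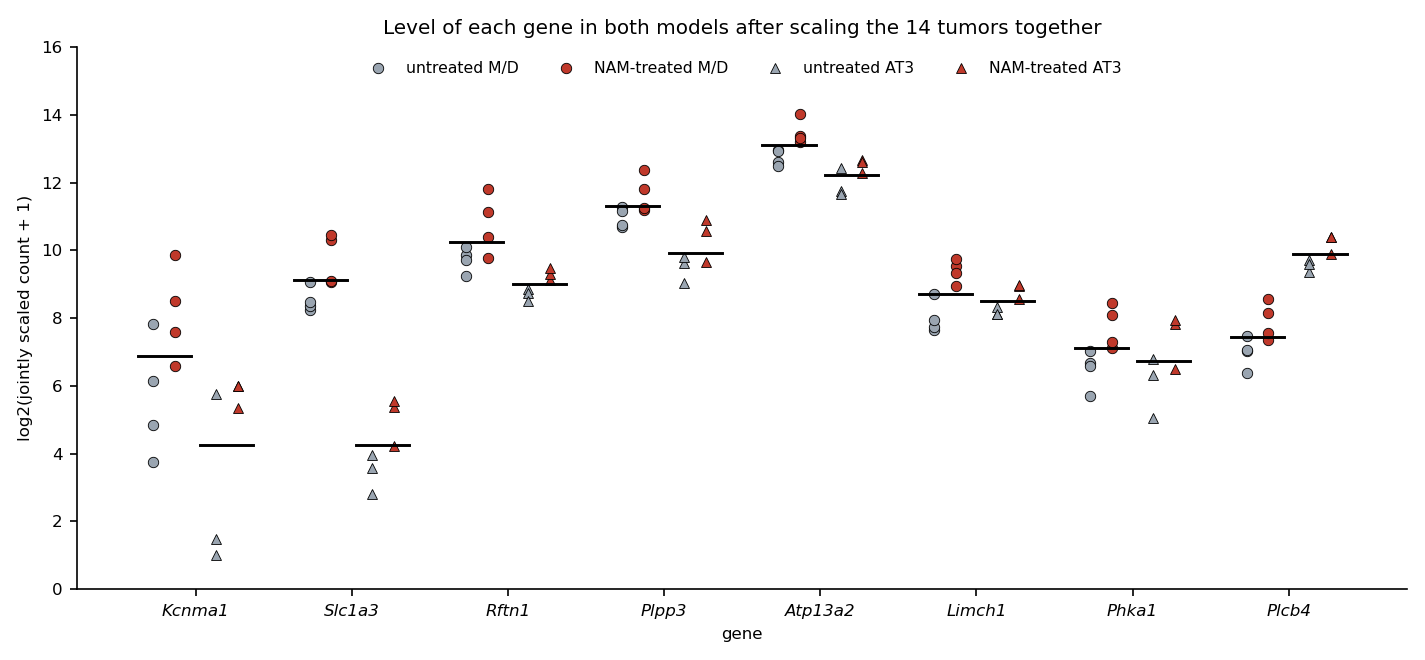
Log2(count + 1) of the 8 genes in the 14 tumors after joint scaling, with circles for M/D and triangles for AT3 tumors, untreated in grey and NAM-treated in red, and a line at the mean of each model. *Slc1a3* is higher in all M/D tumors, *Plcb4* is higher in all AT3 tumors, and *Limch1* and *Phka1* overlap between models.

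Genes that act with the 8 genes were followed in 13 lists, which together held 121 other genes tested in M/D and 113 tested in AT3 tumors. In M/D tumors, 0 of the 121 genes were higher (against 3.03% of all genes) at the unadjusted thresholds. There, 6 were lower (4.96%, against 3.19% of all genes), with a median log2 fold change of −0.04. Without NAM-treated M/D tumor 1, 0 of 122 were higher (against 2.85% of all genes) and 7 were lower (5.74%, against 2.33%). These were the same 6 genes and *Lmo7* (−1.02). In AT3 tumors, 18 of the 113 genes were higher (15.9%, against 12.2% of all genes) and 6 were lower (5.31%, against 10.9%), with a median of 0.10. After removal of the length and GC trend described above, the order of these counts turned in AT3 tumors. There, 5 were higher (4.42%, against 7.92% of all genes) and 11 were lower (9.73%, against 7.93%). In M/D tumors, where the removal had also raised the median of all genes, 2 were higher (1.65%, against 2.43%) and 6 lower (4.96%, against 3.17%). The 5 genes higher in AT3 tumors were *Slc1a4*, *Glul*, *Lpar1*, *Lmo7* and *Pygb*. The other AT3 calls of higher genes named below thus rest on the values with the trend. With p adjusted over all genes, limma and edgeR left 0 of the partner genes in either model. An unadjusted p not above 0.05 was found for 7 (limma) and 11 (edgeR) in M/D and 24 and 26 in AT3 tumors. The DESeq2 Wald test left 1 in M/D tumors (*Lpar5*) and 10 in AT3 tumors, where it called 167 and 2047 of all genes.

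Among the partners of *Kcnma1*, *Kcnmb4*, an accessory subunit of the BK channel, was lower in AT3 tumors (log2 fold change −1.63, and −1.07 and no longer past the thresholds with the trend removed), and 0 of the 6 other BK subunit genes tested in M/D tumors moved past the thresholds. In the SLC1 family of *Slc1a3*, *Slc1a4*, a transporter of neutral amino acids, was higher in AT3 tumors (1.02), and 0 of 5 genes were past the thresholds in M/D tumors. Of 10 genes of glutamate and glutamine metabolism, 3 were higher in AT3 tumors, among them *Slc38a1* (1.03), a glutamine transporter, and *Glul* (0.78), which makes glutamine, whereas *Gls2*, a glutaminase, was lower in M/D tumors (−1.97). After removal of the trend, 1 of the 10 was higher in AT3 tumors. Of the raft scaffold genes beside *Rftn1*, 0 of 6 were past the thresholds in either model.

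In the family of *Plpp3*, 0 of 5 other lipid phosphate phosphatase genes were past the thresholds in either model. Among genes of lysophosphatidic acid and sphingosine 1-phosphate signalling, 2 of 14 were higher in AT3 tumors, the receptor genes *Lpar1* (1.11) and *Lpar2* (1.15), and 2 were lower, while 2 of 16 were lower in M/D tumors, including the receptor gene *Lpar5* (−1.44). With the trend removed, 1 was higher (*Lpar1*, 1.01) and 3 were lower in AT3 tumors. In the list of *Plcb4*, 3 of 15 genes were higher and 1 was lower in AT3 tumors. These included *Gnaq* (1.10), the alpha subunit of Gq, *Prkca* (1.01), a protein kinase C, and *Rgs2* (−1.26), which dampens Gq signalling, and 0 of 15 were past the thresholds in M/D tumors. With the trend removed, 0 were higher and 2 were lower in AT3 tumors, *Rgs2* (−1.12) and *Itpr3* (−0.90), a calcium release channel gene.

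The P5-type ATPase genes *Atp13a4* (−2.90) and *Atp13a5* (−4.78), relatives of *Atp13a2*, were lower in M/D tumors. Both the polyamine acetylase gene *Sat1* (−1.22) and *Oaz1* (−0.82), whose product restrains polyamine synthesis, were lower in AT3 tumors, as 2 of 10 genes of polyamine metabolism. With the trend removed, 3 of the 10 were lower in AT3 tumors, *Oaz1*, *Sms* and *Paox*, but not *Sat1* (−0.54). Of 15 lysosome genes, 1 was lower in M/D tumors, the protease gene *Ctsd* (−0.98), and 1 was higher in AT3 tumors, the transcription factor gene *Tfe3* (0.91). With that trend removed, *Tfe3* had a log2 fold change of 0.19 in AT3 tumors and 1 of the 15 was lower there. Of 11 genes of non-muscle myosin II and its regulators, the partners of *Limch1*, 5 were higher in AT3 tumors, among them *Lmo7* (1.44), a relative of *Limch1*, and the myosin kinase genes *Mylk* (1.22) and *Rock2* (0.89), against 0 of 11 in M/D tumors. With the trend removed, 1 of these 11 was higher and 1 was lower in AT3 tumors. Beside *Phka1*, 3 of 13 genes of glycogen metabolism were higher in AT3 tumors, among them the glycogen phosphorylase gene *Pygb* (0.97), against 0 of 15 in M/D tumors. In AT3 tumors, 1 was higher and 1 was lower with the trend removed.

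Likeness of the course over the 14 tumors was measured by the root mean square difference of log2 values centred on the mean of each model. The most similar genes, with the 8 genes left out, were sought among 15406 genes with a symbol that were tested in both models. They were *Ypel2* (1.15) and *Zranb3* (1.17) for *Kcnma1*, whose own root mean square was 1.98. For *Slc1a3* they were *Fbxo21* (0.42) and *Rapgef5* (0.43), against its own 0.88. For *Rftn1*, *Ttc7b* (0.22) came first, and a row that joins *C3* with *Mir6978* (0.28) came next, against 0.65. *Fam161b* (0.27) and *St3gal2* (0.29) were closest to *Plpp3*, and a row that joins *Ttc41* with *Nt5dc3* (0.19) and *Tti1* (0.20) to *Atp13a2*. *Limch1* was matched by *Chst1* (0.30) and *Asic1* (0.32), *Phka1* by *Pbxip1* (0.41) and *Dnajc27* (0.43), and *Plcb4* by *Gspt2* (0.33) and *Fzd5* (0.34). Among the 8 genes, *Limch1* and *Plcb4* were the most alike pair (0.40), and *Kcnma1* and *Plcb4* the least (1.71). These measures describe the 14 libraries and include the difference with NAM that chose the 8 genes.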

How the data were processed

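Bulk RNA-seq of 14 mouse tumors was used, with groups taken from the labels. The signal deposited by the authors is a normalized count per gene. Per the paper's methods and the labels, STAR 2.4.0 mapped reads on mm10, reads on the constitutive parts of genes in the FAST DB annotation were counted, and DESeq2 size factors were applied. The models appear to have been scaled apart: tumors lay at median ratios of 0.998 to 1.02 (M/D) and 0.975 to 1.01 (AT3) around the mean profile of their model, but at 1.10 to 1.17 and 0.837 to 0.895 around that of both. Rows were matched to the 8 symbols, and of 3 symbols with a second row the row with the highest mean was kept. The members and the gene lists were chosen with earlier results of these data known.

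Models were fitted in limma 3.58.1 (R 4.3.3) with a mean-variance trend to log2(normalized count + 1). Genes needed a group mean of 10 or more in either group. Fold changes of genes with few reads depend on the pseudocount. Genes were called at an unadjusted p not above 0.05 with a change of 1.5-fold or more within a model, and at a Benjamini-Hochberg adjusted p of at most 0.05 between models, after scaling all tumors by median-of-ratios factors. Alternatives were pseudocounts of 0.5 and 5, other filters, TMM (edgeR 4.0.16) and upper quartile scaling, 1 fit of 14 tumors, the replicate number as a block, the edgeR and DESeq2 1.42.0 tests on recovered reads, a spline with 4 degrees of freedom on transcript length and GC content, and each tumor left out. The counts of partner genes without NAM-treated M/D tumor 1 and with that trend removed were added after the data were seen. Lengths came from the longest GENCODE M21 transcript, for 85.1% and 85.2% of genes tested. The scripts were tested on simulated data. The genes named are the 8 genes, the 3 next genes by the larger p with a 1.5-fold change in both models, the 2 genes most like each, and up to 3 per pathway list by smallest p. P values measure the spread between these tumors, and by the labels the NAM-treated M/D group spans experiments 1 and 2. Tables and plots were made with Python 3.11.15, pandas 2.3.3, numpy 2.4.6 and matplotlib 3.10.9. FastQC, Picard and SAMtools served to check the quality of the reads, per the paper's methods.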

Additional observations from a re-analysis of the deposited data

How the results depend on the processing

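Of the NAM fold changes of the 8 genes, 0 changed direction under any alternative. With a tumor left out, all 112 values moved by less than the spread between replicates. Arithmetic fixed that count, since leaving out 1 of 3 or 4 tumors cannot move a difference of means further, so it is no sign of stability. In these fits, *Kcnma1* in AT3 tumors ranged from 2.15 to 4.47. Under the other alternatives, 191 of 196 values moved by less than that spread. The exceptions were in AT3 tumors, *Rftn1* under upper quartile scaling (0.45) and *Rftn1*, *Atp13a2*, *Limch1* and *Plcb4* with the length and GC trend removed (0.31, 0.09, 0.09 and 0.35), where 3 and 2 of the 8 genes were past the thresholds. With a tumor left out, 4 to 7 of the 8 genes were past them in M/D and 0 to 8 in AT3 tumors. Over all genes, M/D tumors had 658 genes higher with NAM, and 1219 without a filter, 312 at a minimum group mean of 50, 992 by edgeR, 1287 by DESeq2, 399 among genes with a length (an alternative chosen after seeing the data), and 395 to 1201 with a tumor left out. In AT3 tumors, 2358 were higher, and 1459 under upper quartile scaling, 1301 with the trend removed, and 904 to 3459 with a tumor left out. Upper quartile scaling moved the median log2 fold change of all genes to 0.12 in M/D tumors and to −0.25 in AT3 tumors, with 1459 higher and 3481 lower genes in AT3 tumors, against 2358 and 2100. In untreated tumors alone, the model difference of *Limch1* was reversed (−0.17, not past the threshold), and with values as deposited it passed (0.57). In NAM-treated tumors alone, 1678 genes and 2 of the 8 genes differed between models, and *Kcnma1* (2.36), *Rftn1* (1.47), *Plpp3* (1.29) and *Atp13a2* (0.96) no longer passed. Beyond fewer genes or tumors in a fit, the cause of these moves was not tested. The deviations of equally numbered tumors correlated at −0.18 (M/D) and 0.07 (AT3) on average, ranging from −0.44 to 0.11 and from −0.16 to 0.26, so that the numbers were not taken to pair tumors. With the replicate block, 479 genes were higher in M/D and 2702 in AT3 tumors, 6 and 8 of the 8 genes were past the thresholds (not *Plpp3* and *Phka1* in M/D tumors), and 1296 genes reached an adjusted p of 0.05 in AT3 tumors, against 1 without it. Between models, the block left 9029 genes and 5 of the 8 genes, and *Kcnma1* (1.97) no longer passed. Depth limits *Kcnma1* and *Slc1a3* in AT3 tumors, with 1 to 66 and 6 to 48 reads.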
